A study of Mus musculus with 18 samples.

Results

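The cells described here are mouse cardiac progenitors that carried a pulse of the transcription factor GLI1 and were then followed after the inducer had been washed away. They were taken as the 2 pulsed libraries of D8 (numbers 14 and 18 in the deposited count table) and the 3 pulsed libraries of D6 (numbers 4, 12 and 16), which are 5 of the 18 libraries in the series. All came from GLI1-FTA, a mouse embryonic stem cell line with strain given as A2Lox.cre, that was differentiated toward cardiomyocytes. Pulsed cells received 500 ng/ml doxycycline for 24 hours between D5 and D6, so the D6 cells were harvested at the end of the pulse and the D8 cells after washing. Cells of the same line with no doxycycline served as the untreated series, with 3 libraries at D6 (3, 11 and 15) and 2 at D8 (13 and 17). No group received doxycycline without the induced gene, so effects of the drug and of GLI1 cannot be told apart. The labels call D6 cells cardiac progenitors and D8 cells immature cardiomyocytes. They do not say whether libraries of a group came from separate cultures, so the replicates may be technical and p-values reach no further than the spread among them.

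GLI1 is an activator among the GLI proteins, the factors through which the Hedgehog signal reaches its target genes. A Hedgehog ligand binds the receptor PTCH1, which releases SMO from inhibition, and GLI proteins then turn on genes that include the pathway's own brakes, such as Ptch1 and Hhip, and Gli1 itself. In the embryo, Hedgehog signalling acts on second heart field progenitors, which lie outside the early heart tube and add cells to it later.

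Total counts were 20187924 to 22608134 in the 3 pulsed D6 libraries and 20798195 and 20524374 in libraries 14 and 18. The 2 pulsed D8 libraries had the highest chi-square per gene of all pairs of libraries within a group, at 122.2 against 6.86 to 93.7. By the SD of log2 differences, 0.8957, they lay just under a pair of D5 libraries at 0.8975. Levels of 435 genes differed over 4-fold between libraries 14 and 18, and of 77 genes between the 2 untreated D8 libraries, with 0.5 added to each level in CPM, the count scaled to the library's total. In library 14, heart muscle genes were high: Myh6, a cardiac myosin heavy chain, stood at 3218 CPM against 205 in library 18, and the cardiac homeobox gene Nkx2-5 at 124 against 8.72. In library 18, the forkhead gene Foxf2 stood at 20.1 CPM against 0.509 in library 14, and the collagen gene Col1a2 at 1234 against 640.4. Results that rest on 1 of the 2 libraries are therefore given with and without it. In bulk RNA, fewer cells of a type and less RNA per cell cannot be told apart.

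The first question was what pulsed cells gained and lost between D6 and D8. Of 14892 genes tested, 5970 changed (40.1%) in edgeR's quasi-likelihood test at an adjusted p under 0.05. Of these, 3024 rose (20.3%) and 2946 fell (19.8%). The change was over 8-fold for 338 genes that rose and 255 that fell. Without library 14 the count was 3431, of which 3223 were among the 5970, and without library 18 it was 5434, of which 4690 were. The D6 and D8 libraries did not overlap for 5839 of the 5970, and for 9014 of all 14892 genes tested.

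Much of this also took place in cells that had no pulse. Untreated cells share no library with the pulsed comparison, and 5178 of the 14892 genes tested changed in them (34.8%). Of the genes that rose in pulsed cells, 63.46% also rose in untreated cells, and of those that fell, 69.35% also fell. Only 5 genes rose in pulsed and fell in untreated cells, and 26 did the reverse. The test of the difference between both changes passed for 94 genes (0.631%), with a lower change in pulsed cells for 84 (0.564%) and a higher one for 10 (0.0672%). At an unadjusted p under 0.05 there were 1046, and DESeq2 called 233. In simulated data this test of the difference recovered 12% of 2-fold and 70% of 4-fold differences. A gene that did not pass was therefore not shown to change alike in pulsed and untreated cells.

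**Figure D1:**
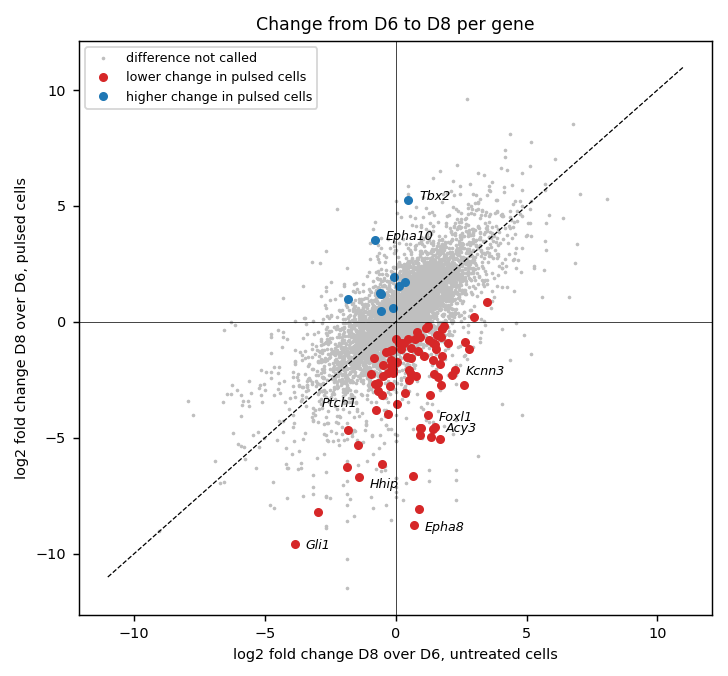
Change from D6 to D8 of each of the 14892 genes tested, as log2 fold change in untreated cells (x axis) and pulsed cells (y axis), with the dashed line marking equal change. The 84 genes with a lower change in pulsed cells (red) lie under the line and the 10 with a higher change (blue) above it.

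Gli1 was at 891, 1051 and 785 CPM in D6 libraries 4, 12 and 16 and at 0.925 and 1.45 in D8 libraries 14 and 18. Both D8 libraries were far below all D6 libraries and near the untreated D8 levels of 0.752 and 1.18 CPM in libraries 13 and 17. The fall was -9.57 ± 0.86 on the log2 scale (standard error, edgeR adjusted p = 1.06e-05). Untreated cells also lost Gli1, from 6.84, 21.4 and 13.7 CPM at D6 (log2 fold change -3.85 ± 0.73, edgeR adjusted p = 0.00149). The difference, pulsed minus untreated, was -5.72 log2 units (edgeR adjusted p = 0.0277), a call that held in 4 of 10 fits with 1 library left out, and without library 12, 13, 14, 15, 17 or 18 the adjusted p was 0.0529 to 0.286. Whether reads of the induced copy are counted as Gli1 is not stated in the labels.

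The feedback genes Ptch1 and Hhip fell with it. Ptch1, the receptor, was at 899, 1087 and 1044 CPM in D6 libraries 4, 12 and 16 and at 39.7 and 105 in D8 libraries 14 and 18 (log2 fold change -3.81 ± 0.41, edgeR adjusted p = 2.44e-05). Both D8 libraries lay below all D6 libraries and above the untreated D8 levels of 33.4 and 29.6 CPM. Hhip, a decoy that binds Hedgehog ligands, went from 386, 426 and 512 to 0.787 and 7.72 CPM (log2 fold change -6.69 ± 0.78, edgeR adjusted p = 4.42e-05), with library 14 below and library 18 above the untreated 2.26 and 2. Untreated cells had log2 fold changes of -0.76 for Ptch1 and -1.41 for Hhip, and neither passed. The difference between pulsed and untreated cells passed for both (edgeR adjusted p = 0.0112 for Ptch1 and 0.0189 for Hhip). The call of Hhip held in 6 of 10 fits with 1 library left out, and without library 3, 13, 15 or 17 the adjusted p was 0.0524 to 0.0976 in edgeR. That of Ptch1 was lost without library 13 (0.0525).

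The Hedgehog target list has 22 members, of which Nkx2-2 did not pass the filter on low counts. Of the 21 tested, 14 fell, 2 rose and 5 did not pass, where 19.8% of all genes fell and 20.3% rose. The median change was -1.65 against 0.012 over all genes tested. In untreated cells 4 fell and 1 rose, against 17.5% and 17.3% of all genes, with a median of -0.42. Among the remaining members that fell were 2 whose change differed from that of untreated cells. Foxl1, a forkhead factor of gut mesenchyme, went from 51.3, 52 and 101 to 2.87 and 5.45 CPM (difference -5.27, edgeR adjusted p = 0.00352). Hsd11b2, an enzyme that inactivates glucocorticoids, went from 582, 522 and 638 to 86 and 146 CPM (difference -3.08, edgeR adjusted p = 0.0221, held in 5 of 10 fits with 1 library left out, and without library 3, 11, 14, 16 or 17 the adjusted p was 0.0563 to 0.122).

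Growth genes on the list fell by less. Mycn, a proto-oncogene of proliferating progenitors, went from 157, 159.9 and 164 to 36.3 and 49.6 CPM (-1.90 ± 0.22), and in untreated cells it changed by -1.46. The G1 cyclin genes Ccnd1 and Ccnd2 changed by -0.91 and -1.65, the cell survival gene Bcl2 by -1.07 and the membrane traffic gene Rab34 by -0.33 log2 units (edgeR adjusted p = 0.000858, 0.00151, 0.00195 and 0.049). The test of the difference from untreated cells passed for none of these 5. For Rab34 the adjusted p was 0.322 without library 14, 0.117 without library 16 and 0.133 without library 4.

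Several other members lay far apart in the 2 D8 libraries. Foxf1, listed as Foxf1a and a factor of lateral mesenchyme, was at 87.9, 81.2 and 115 CPM in the D6 libraries and at 2.13 and 21.1 in libraries 14 and 18 (log2 fold change -3.03 ± 1.00, edgeR adjusted p = 0.0277). Foxa2, a factor of floor plate and endoderm, went from 85.5, 95.5 and 112 to 0.231 and 9.26 CPM (log2 fold change -4.36 ± 0.96, edgeR adjusted p = 0.00297). Osr1, a second heart field gene, went from 27.7, 35 and 28.1 to 1.16 and 10.8 CPM (log2 fold change -2.34 ± 0.77, edgeR adjusted p = 0.0277). In each of these 3 genes library 18 lay well above library 14, and both lay below all D6 libraries. Without library 14 the adjusted p was 0.154 for Foxf1a, 0.0045 for Foxa2 and 0.155 for Osr1, and Foxf1a also missed the threshold without library 16 (0.0658) and Osr1 without library 12 (0.0579). Without library 18 the falls were larger, at -5.47, -8.68 and -4.70.

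Among members that did not pass, Foxf2 and Foxd1 showed no fall in library 18. Foxf2 was at 22.4, 13.3 and 33.6 CPM at D6, at 0.509 in library 14 and at 20.1 in library 18, within the D6 range (log2 fold change -1.16 ± 1.14, edgeR adjusted p = 0.44). Foxd1 was at 3.02, 2.04 and 4.9 CPM at D6, 0.0925 in library 14 and 19.1 in library 18, above all D6 libraries. Untreated D8 libraries held 0.0442 and 0.0872 CPM of Foxf2 and 0.0885 and 0.479 of Foxd1. Without library 18 both were called lower, at -5.48 for Foxf2 (edgeR adjusted p = 0.0169) and -5.08 for Foxd1 (0.0272), so the direction of Foxd1 rests on that library. Nkx2-3, a homeobox gene of pharynx and gut, was likewise highest in library 18, at 25.7 CPM against 3.56 in library 14 and 2.4, 2.47 and 5.92 at D6 (edgeR adjusted p = 0.099, and 0.0467 without library 14). Foxc2 and Foxd2 did not pass, with log2 fold changes of -0.48 and -1.30 (edgeR adjusted p = 0.5 and 0.262).

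The 2 members called higher rested on library 14. Nkx2-1, a homeobox factor of lung and thyroid, had 2 counts in the 3 D6 libraries together and 213 in the D8 libraries, with 9.67 CPM in library 14 and 0.182 in library 18. That ratio was 163, with an exact 95% interval of 44.6 to 1360.0 that covers counting error only, and the edgeR adjusted p of 0.00121 became 0.187 without library 14. Cdkn1c, a cell cycle inhibitor, was at 350.2, 394 and 416 CPM at D6, 1173 in library 14 and 447 in library 18 (log2 fold change 1.07 ± 0.34, edgeR adjusted p = 0.0227, and 0.67 without library 14, 0.0526 without library 12 and 0.0671 without library 4).

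**Figure D2:**
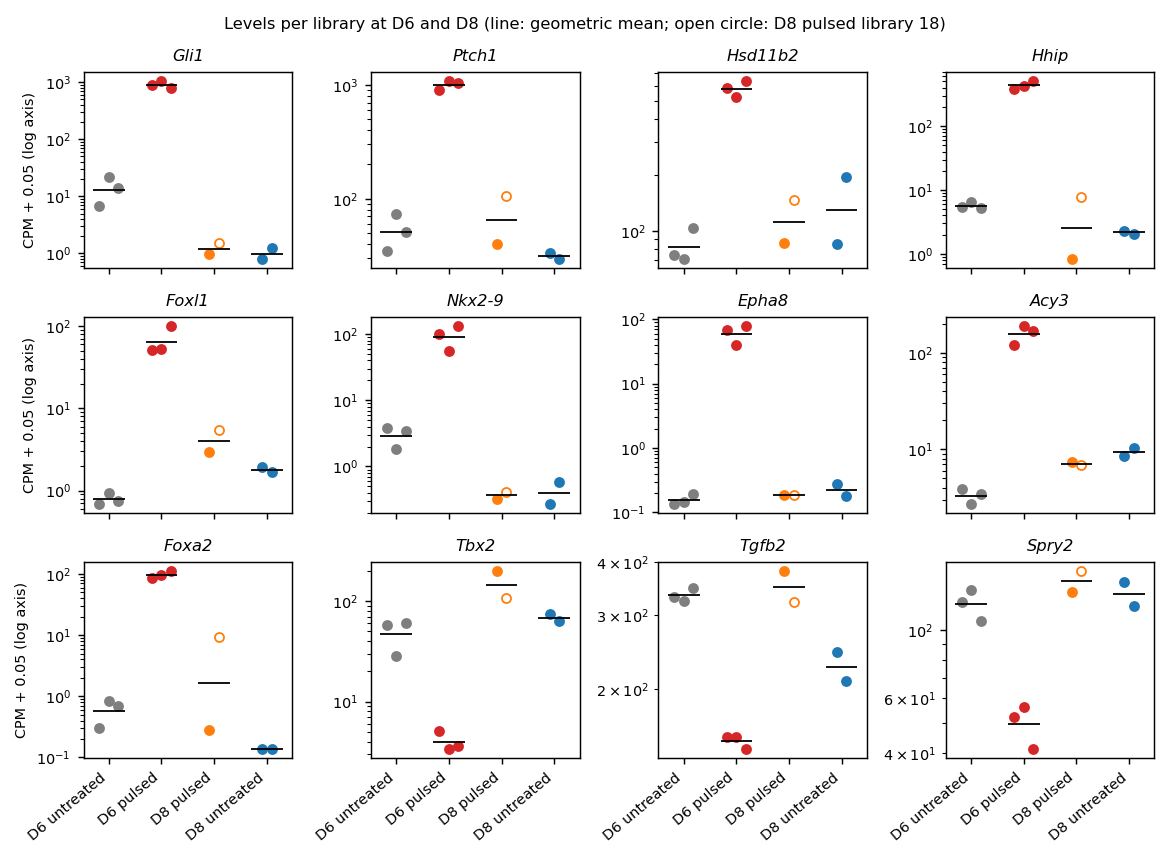
Level of 12 genes in each library at D6 and D8, as CPM plus 0.05 on a log axis, with a line at the geometric mean of each group. D8 pulsed library 18 is drawn open, and it lies above library 14 for Ptch1, Hhip and Foxa2.

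The promoters of 2 fallen genes are shown because GLI proteins bind a site whose core reads CCACCCA. Each is the 250 bases before the gene's start, 5′ to 3′ on the gene's strand, from RefSeq on GRCm38.p6, and capitals mark the core. Nkx2-9 lies at chr12:56613285-56613534 and Ptch1 at chr13:63565736-63565985, both on the minus strand.
Nkx2-9: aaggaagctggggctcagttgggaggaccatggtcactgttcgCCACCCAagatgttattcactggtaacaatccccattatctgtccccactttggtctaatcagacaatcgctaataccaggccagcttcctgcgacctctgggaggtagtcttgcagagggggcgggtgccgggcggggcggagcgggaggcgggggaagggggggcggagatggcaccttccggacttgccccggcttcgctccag
Ptch1: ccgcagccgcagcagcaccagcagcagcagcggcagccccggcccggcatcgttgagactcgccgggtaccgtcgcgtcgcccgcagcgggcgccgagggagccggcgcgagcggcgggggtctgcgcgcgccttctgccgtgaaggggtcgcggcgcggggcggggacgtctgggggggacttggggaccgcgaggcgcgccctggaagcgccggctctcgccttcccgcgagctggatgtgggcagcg
The Nkx2-9 window holds the core once, from 207 to 201 bases before the start, and the Ptch1 window holds no match on either strand. Over the genes with a promoter in the table, CCACCCA or its reverse complement TGGGTGG was present in 6 of 65 with a lower change in pulsed cells (9.23%: Lifr, Nkx2-9, Ntm, Pde1c, Rnf152 and Tmtc1). The share was 10.3% of all tested genes (1205 of 11690), 9.32% of those that fell in pulsed cells and 11.7% of those that rose. A match is a description of these letters and not of binding.

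Nearly all of the 12 largest falls ended close to 0. Epha8, an ephrin receptor, was at 68.5, 40.1 and 78.9 CPM in D6 libraries 4, 12 and 16 and at 0.139 and 0.136 in D8 libraries 14 and 18 (log2 fold change -8.77 ± 0.61, edgeR adjusted p = 4.14e-06). Nkx2-9, a homeobox factor of the ventral neural tube, went from 98.9, 55.3 and 133 to 0.278 and 0.363 CPM (log2 fold change -8.20 ± 0.73, edgeR adjusted p = 1.03e-05). Lrrc15, a membrane protein with leucine-rich repeats, went from 43.1, 32.2 and 37 to 0.0463 and 0.681 CPM (log2 fold change -6.66 ± 0.87, edgeR adjusted p = 9.38e-05). No D8 library reached any D6 library in these genes, which the rule that picked the largest falls required. The untreated cells held 0.085, 0.093 and 0.14 CPM of Epha8 and 0.383, 0.186 and 0.561 of Lrrc15 at D6, and the difference passed for both (edgeR adjusted p = 0.00169 and 0.0079).

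Growth factor genes of the FGF family were among the largest falls. Fgf3 went from 134, 100.1 and 108 to 0.463 and 0.681 CPM, Fgf15 from 291, 213 and 196 to 2.27 and 3.41 and Fgf5 from 19.9, 8.78 and 16 to 0.139 and 0.227 (log2 fold changes -7.62, -6.36 and -6.30, edgeR adjusted p = 0.000626, 0.000757 and 0.000256). In untreated cells Fgf5 also fell, by 5.34 log2 units, while Fgf3 and Fgf15 were low at D6 already, at 2.21, 0.372 and 0.701 and 18, 3.63 and 3.46 CPM. The difference of the changes passed for none of the 3 (edgeR adjusted p = 0.386, 0.0872 and 1). The mesoderm factor T went from 6.95, 11.6 and 15.9 to 0 and 0.182 CPM and Ppp2r2c, a phosphatase subunit, from 10.9, 15.4 and 7.68 to 0.0925 and 0.182. Both also fell in untreated cells, by 4.67 and 4.17 log2 units. Vwa2, an extracellular matrix protein, went from 20.3, 27.9 and 22.1 to 0.0463 and 0.545 CPM, and Aldh3b2, an aldehyde dehydrogenase, from 887 to 2 counts (ratio 289, exact 95% interval 79.9 to 2390.0).

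Of the 12 largest rises, 10 were also called higher in untreated cells, and Tbx2 and Fsd2 were not. Dnm3os, a noncoding RNA antisense to Dnm3, went from 0.744, 0.57 and 0.832 CPM in D6 libraries 4, 12 and 16 to 55.8 and 79 in libraries 14 and 18 (log2 fold change 6.54 ± 0.63, edgeR adjusted p = 1.5e-05), though whether the counting used strand is not given. Ebf2, a factor of mesenchymal precursors, went from 0.786, 0.759 and 1.53 to 40.3 and 63.1 CPM. Hpgd, which breaks down prostaglandins, went from 1.16, 0.285 and 1.2 to 28.7 and 37.8 CPM, and the protease inhibitor A2m from 2.03, 0.617 and 4.35 to 84.9 and 65.4. In each of these 4 genes both D8 libraries were high, and the genes rose in untreated cells too (log2 fold changes 4.25, 3.60, 4.57 and 4.84).

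Other large rises were uneven between the D8 libraries. The calcium channel gene Cacna1h went from 6.61, 5.79 and 6.71 to 413 and 79.4 CPM, and the incretin receptor gene Gipr from 0.744, 0.902 and 0.694 to 89 and 5.9. Fsd2, a striated muscle gene, went from 1.24, 2.04 and 1.9 to 98.8 and 6.18 CPM and Diras2, a small GTPase, from 1.03, 1.95 and 0.925 to 65.5 and 9.81. These 4 were highest in library 14, and the adjusted p without it was 0.00198 for Cacna1h, 0.0771 for Gipr, 0.387 for Fsd2 and 0.0546 for Diras2 in edgeR. Another 3 were highest in library 18. They were Gfra1, a GDNF receptor, with 4.03 and 39.3 CPM in libraries 14 and 18, Lbp, which binds lipopolysaccharide, with 4.95 and 35.1, and the collagen gene Emid2 with 145 and 392. Against D6 levels of 0.786, 0.712 and 0.74, 0.661, 0.427 and 0.601 and 11.9, 6.41 and 10.2 CPM, they rose by 4.85, 5.13 and 4.82 log2 units (edgeR adjusted p = 0.000353, 5.89e-05 and 0.000102). Without library 18 the rise was 2.43 for Gfra1, 3.12 for Lbp and 3.94 for Emid2 (edgeR adjusted p = 0.00606, 0.000151 and 0.000619).

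**Figure D3:**
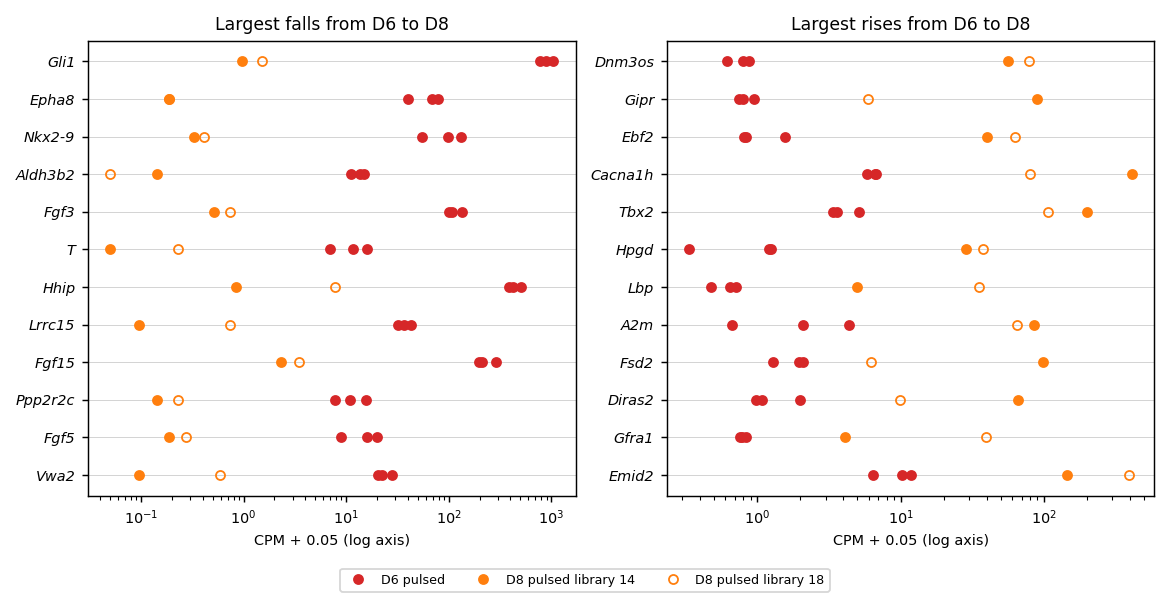
Level of the 12 genes with the largest falls (left) and the 12 with the largest rises (right) in each pulsed library, as CPM plus 0.05 on a log axis. D6 libraries are red and D8 libraries orange, with library 18 open. The 24 genes were picked by a rule that required these groups not to overlap. The D8 points of Gipr, Fsd2, Gfra1 and Lbp lie far apart.

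The second question was which changes differed from those of untreated cells. All 84 genes with a lower change had D6 pulsed levels above every D6 untreated library, and 73 of them fell in pulsed cells, of which 41 were not called in untreated cells. This ordering at D6 is part of the contrast and is a description. At D8 the pulsed and untreated groups overlapped for 49 of the 84. Library 14 lay above both untreated D8 libraries for 19 and below both for 40, with a median log2 ratio of -0.18 to their mean. Library 18 lay above both for 26 and below both for 31, with a median of -0.034. D8 levels also enter the contrast, and the same counts over all genes tested are not given. These counts are therefore a description only.

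Acy3, an aminoacylase, was at 123, 191 and 169.8 CPM in the D6 pulsed libraries, 7.26 and 6.81 in the D8 pulsed libraries and 8.4 and 10.3 in the D8 untreated libraries (difference -6.02 ± 0.32, edgeR adjusted p = 3.73e-07). Kcnn3, a calcium-activated potassium channel, was at 44, 46.7 and 35.5, 9.49 and 10.5 and 6.68 and 6.54 CPM in the same order (difference -4.35 ± 0.39, edgeR adjusted p = 0.000203). Slc8a3, a sodium-calcium exchanger, was at 17, 13.3 and 13.8, 2.54 and 3.04 and 3.49 and 2.57 CPM (difference -4.03, edgeR adjusted p = 0.00541). Each of these 3 fell in pulsed cells and rose in untreated cells. Pik3r6, a regulatory subunit of a phosphoinositide kinase, went from 30.4, 46.2 and 21 to 0.37 and 1.82 CPM (difference -5.80, edgeR adjusted p = 0.0044).

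The calcium-binding protein gene Casq2 went from 17.6, 14 and 22.9 to 0.74 and 0.727 CPM (difference -6.06, edgeR adjusted p = 0.0277). Ntm, an adhesion protein of neurons, was at 23.5, 28.5 and 38.2 CPM at D6 and 20.8 and 5.95 at D8, and was not called in pulsed cells alone (log2 fold change -1.17 ± 0.58, edgeR adjusted p = 0.122), while its difference was -3.99 (edgeR adjusted p = 0.0476). With each of the 10 D6 and D8 libraries left out in turn, the call of the difference held in 1 of 10 fits for Casq2 (without library 12), 1 of 10 for Ntm (without library 14) and 4 of 10 for Nkx2-9. For Nkx2-9, without library 11, 13, 14, 15, 17 or 18 the adjusted p was 0.0509 to 0.48 in edgeR, for Casq2 the losses ranged from 0.0525 to 0.141 and for Ntm from 0.0675 to 0.172. It held in 10 of 10 for Acy3, Kcnn3, Slc8a3, Pik3r6, Epha8 and Foxl1, and in 9 of 10 for Ptch1, whose call was lost without untreated D8 library 13 (0.0525), and for Lrrc15, lost without untreated D8 library 17 (0.171).

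All 10 genes with a higher change had D6 pulsed levels below every D6 untreated library, and all 10 rose in pulsed cells. Library 18 lay above both untreated D8 libraries for all 10 and library 14 for 9. The D6 ordering, the rise and the D8 levels all enter the contrast that picked these genes. The same counts over all genes tested are not given, so these counts are a description only. Tbx2, a T-box repressor of the nonchamber myocardium, was at 5.09, 3.32 and 3.56 CPM in D6 libraries 4, 12 and 16 and at 199 and 106 in libraries 14 and 18, against 57.9, 28.3 and 61.2 at D6 and 73.8 and 63.5 at D8 in untreated cells. It was low at the end of the pulse and above both untreated libraries at D8 (pulsed log2 fold change 5.25 ± 0.52, edgeR adjusted p = 1.56e-05). The difference was 4.77 ± 0.70 (edgeR adjusted p = 0.00584), and held in 10 of 10 fits.

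Tgfb2, a ligand of the TGF-beta family, was at 153, 154 and 144 CPM at D6, 381 and 321 at D8 and 244 and 208 in untreated D8 libraries. It rose in pulsed and fell in untreated cells (difference 1.78 ± 0.18, edgeR adjusted p = 0.000465, held in 10 of 10 fits). Spry2, an inhibitor of FGF signalling, went from 52.2, 56.1 and 41.1 to 133 and 155 CPM against 143 and 119 in untreated D8 libraries (difference 1.43, edgeR adjusted p = 0.034). Cdh6, a cadherin, went from 13.6, 14.7 and 8.32 to 19.2 and 28.7 CPM, while untreated D8 libraries held 10.3 and 4.62 (difference 2.81, edgeR adjusted p = 0.0187). Lrrn2, Tsc22d1, Shank1 and Crtc1 differed by 1.98, 1.05, 1.82 and 0.70 (edgeR adjusted p = 0.0244, 0.031, 0.0482 and 0.0454). The call held in 7 of 10 fits for Cdh6, 3 of 10 for Lrrn2, 2 of 10 for Spry2, 1 of 10 for Tsc22d1 and 0 of 10 for Shank1 and Crtc1. For Cdh6, without library 3, 17 or 18 the adjusted p was 0.0515 to 0.0955, and for Lrrn2, without library 3, 12, 13, 14, 15, 16 or 17 the adjusted p was 0.0531 to 0.141 in edgeR. The call was kept only without library 12 or 15 for Spry2 and without library 12 for Tsc22d1, with an adjusted p up to 0.185 and 0.173 in the other fits, and up to 0.231 for Shank1 and 0.232 for Crtc1. In pulsed cells alone the rise of Cdh6 missed the threshold without library 18, 16 or 4 (0.24, 0.125 and 0.0563) and that of Tsc22d1 likewise (0.0792, 0.0558 and 0.0572).

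The D8 label, immature cardiomyocytes, was checked against heart muscle genes, and the 2 D8 libraries differed. Summed over the 36 sarcomere genes of the list, the level was 4727 to 11461 CPM at D6, 22461 in library 14 and 3529 in library 18, against 24745 and 11962 in untreated D8 libraries. Library 14 lay above all D6 pulsed libraries and library 18 below all of them. Cardiac troponin T, Tnnt2, was at 256, 785 and 290.4 CPM at D6 and 1336 and 186 in libraries 14 and 18, and cardiac actin, Actc1, at 275, 1008 and 311 and 2716 and 371. Neither passed the test (edgeR adjusted p = 0.404 and 0.134).

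Of 35 sarcomere genes tested, 6 rose and 0 fell, against 20.3% and 19.8% of all genes, with a median change of 1.40. Myh6 was at 83.4, 339 and 92.5 CPM at D6 and 3218 and 205 at D8 (log2 fold change 3.32 ± 1.05, edgeR adjusted p = 0.0222), with library 18 inside the D6 range, the intermediate filament gene Des at 180.3, 212 and 126 and 710.4 and 286, and Tnnt1, a slow troponin, at 1.65, 1.38 and 2.27 and 13 and 2.95. Mypn, which anchors titin, went from 0, 0.0949 and 0.185 to 3.89 and 0.5 CPM. Each of these 4 lost its call without library 14. The log2 fold changes of Myh6, Des, Tnnt1 and Mypn were then 0.26, 0.73, 0.74 and 2.39, against 3.32, 1.53, 2.17 and 4.51 with it. Over the list, the medians of libraries 14 and 18 alone over the mean of the D6 pulsed libraries were 2.45 and -0.74. Myh6 also lost its call without library 16 (0.0781) or 4 (0.0744), and Des without library 16 (0.0606).

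Core cardiac transcription factors followed the same split. Their summed level was 1066 to 1182 CPM at D6, 3593 in library 14 and 1123 in library 18. Of 19 tested, 6 rose and 0 fell, against 20.3% and 19.8% of all genes. The medians of libraries 14 and 18 alone were 1.46 and -0.29. Hopx, a homeodomain cofactor of cardiac commitment, went from 2.89, 3.65 and 4.76 to 50.1 and 76.6 CPM (log2 fold change 4.07 ± 0.67, edgeR adjusted p = 0.000452) and was high in both libraries. Gata6 went from 80.6, 74.9 and 66.5 to 299 and 101 CPM and Irx4, a ventricular factor, from 0.207, 0.807 and 0.37 to 8.42 and 0.545, where library 18 lay inside the D6 range, and their adjusted p without library 14 was 0.329 and 0.894. Irx4 also lost its call without library 16 (0.0584) or 4 (0.0633).

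Cardiac energy metabolism had the most called members of the heart lists. Its summed level was 1179 to 1313 CPM at D6, 2664 in library 14 and 1194 in library 18, the last inside the D6 range. Of 26 tested, 16 rose and 0 fell, against 20.3% and 19.8% of all genes, with a median of 1.44. In untreated cells 12 rose, against 17.3% of all genes, with a median of 1.11. The fatty acid enzyme gene Acadl went from 30.7, 33.9 and 27.8 to 82.5 and 57.9 CPM and the insulin-responsive glucose carrier Slc2a4 from 23.1, 19.6 and 20.2 to 57.6 and 43, with both D8 libraries above all D6 libraries. Pdk4, a switch from glucose to fat use, went from 2.03, 1.71 and 1.62 to 30.2 and 8.36 CPM, and Acadvl from 19.5, 20.8 and 19 to 73 and 37.6 (edgeR adjusted p without library 14 = 0.0191 and 0.0548). The rise of Pdk4 was 3.43 log2 units, and 2.22 without library 14. The medians of libraries 14 and 18 alone were 2.08 and 0.39.

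Of 20 calcium genes 7 rose and 1 fell, against 20.3% and 19.8% of all genes. The 1 that fell was Casq2, low in both D8 libraries as given above (log2 fold change -4.62, edgeR adjusted p = 0.00118). Of 22 channel and gap junction genes 8 rose and 1 fell, against the same shares. Without library 14 the number that rose was 3 in each list, and 1699 of all 14892 genes. Cacna1g, a T-type calcium channel, went from 6.61, 4.94 and 9.25 to 22.3 and 26.2 CPM and Asph, a junction protein, from 80.6, 99.7 and 115 to 166 and 153, high in both D8 libraries. The pacemaker channel gene Hcn4 went from 4.84, 6.17 and 9.2 to 30.2 and 19.4 CPM and Kcnh2, which carries a repolarizing current, from 31.8, 34 and 38.3 to 193 and 58.9 (edgeR adjusted p = 0.0026 and 0.00135, the last 0.06 without library 14). Kcns2, a potassium channel subunit, had 454 counts over the D6 libraries and 0 at D8, at least 98.7-fold lower if 3 counts in the D8 group are taken as the floor. Of 17 chamber and secreted genes 5 rose and 1 fell, against 20.3% and 19.8% of all genes. In untreated cells 5 rose and 0 fell, against 17.3% and 17.5%, and the difference passed for 0 of the 17. The vasodilator peptide Adm went from 2.65, 1.71 and 1.99 to 19.1 and 10.9 CPM. The ventricular repressor Hey2 went from 12.9, 10.6 and 12.2 to 35.4 and 30.8 and the endothelin receptor Ednra from 21.9, 23.7 and 25.9 to 66.9 and 52.6. Hey1, the atrial counterpart of Hey2, went from 60, 47.5 and 52.3 to 30.1 and 15.2 (edgeR adjusted p = 0.0129, and 0.122 without library 18).

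**Figure D4:**
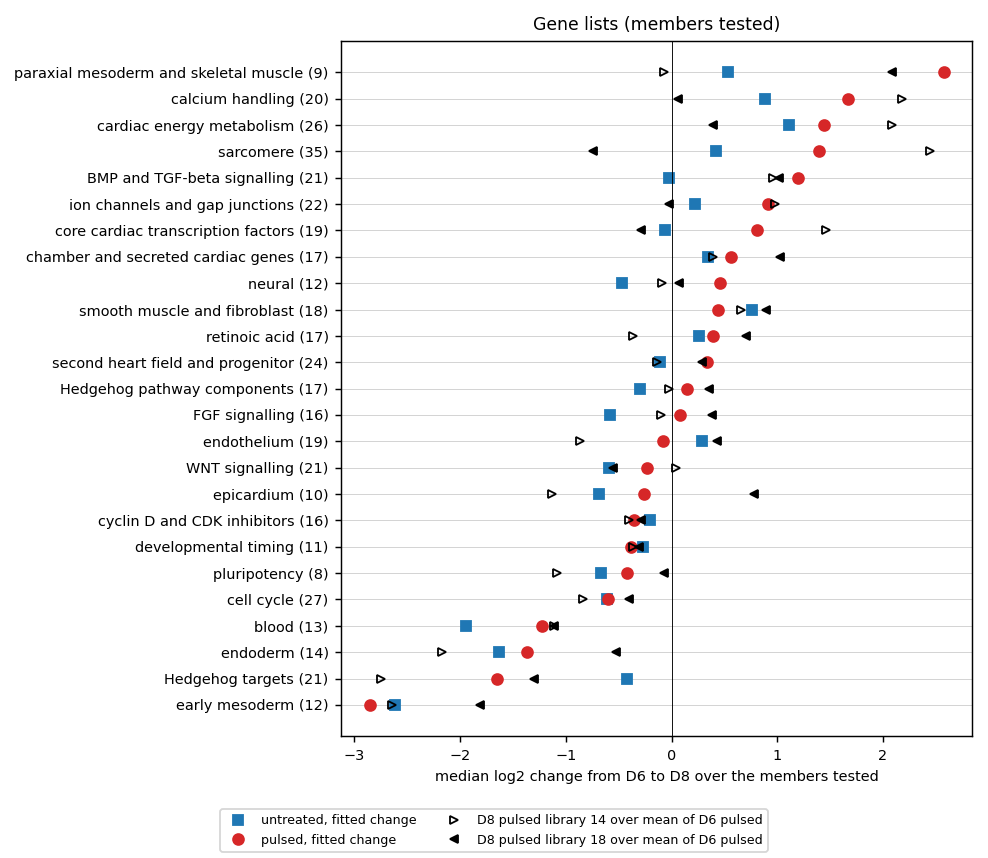
Median log2 change from D6 to D8 over the tested members of each gene list, for pulsed cells (red circles), untreated cells (blue squares) and D8 libraries 14 and 18 alone over the mean of the D6 pulsed libraries (triangles). Library 14 lies right and library 18 left of the fitted value for sarcomere and core transcription factor genes.

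Of 21 BMP and TGF-beta genes tested, 8 rose (20.3% of all genes) and 1 fell (19.8%) with a median of 1.19. In untreated cells 0 rose and 3 fell, against 17.3% and 17.5% of all genes, with a median of -0.023. The medians of libraries 14 and 18 alone were 0.96 and 1.02. Id2, a direct BMP target, went from 84.1, 61.5 and 52.3 to 214 and 194 CPM (log2 fold change 1.63 ± 0.33, edgeR adjusted p = 0.00182), and the BMP decoy receptor Bambi from 74.2, 71.6 and 80.8 to 323 and 129.6 (edgeR adjusted p = 0.00228, and 0.0905 without library 14). Nog, a BMP antagonist, went from 34.6, 49.6 and 37.9 to 3.61 and 3 CPM (log2 fold change -3.62 ± 0.56, edgeR adjusted p = 0.000299). Tgfb2 was the 1 member whose difference from untreated cells passed.

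Of 21 WNT genes tested, 2 rose and 6 fell, against 20.3% and 19.8% of all genes. In untreated cells 2 rose and 8 fell, against 17.3% and 17.5%. Axin2, a feedback target of canonical WNT signalling, went from 45.1, 40.5 and 43.7 to 9.86 and 8.49 CPM, its nuclear mediator Lef1 from 62.3, 54.1 and 53.8 to 7.08 and 11.9 and the ligand Wnt4 from 76.7, 104 and 54.8 to 1.34 and 5.5. Dkk1, a secreted WNT inhibitor, went from 12.5, 11.1 and 7.17 to 159 and 38.4 CPM. Both D8 libraries lay on the same side of all D6 libraries in these 4 genes (edgeR adjusted p = 0.000508, 0.000858, 0.000744 and 0.000142). The rise of Dkk1 was 3.26 log2 units, and 1.90 without library 14.

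Of 16 FGF genes 5 rose and 4 fell, against 20.3% and 19.8% of all genes. Those that fell were the ligands Fgf3, Fgf9, Fgf15 and Fgf18. Those that rose were the inhibitors Spry1, Spry2 and Spry4, the receptor gene Fgfr1 (log2 fold change 0.59) and Etv5 (0.84). The ligands Fgf8 and Fgf10 were among the members that did not pass, as was Dusp6. Spry1 went from 44.2, 45.2 and 42.9 to 76.3 and 116 CPM. Of 17 retinoic acid genes 5 rose and 3 fell, against the same shares. Dhrs3, which reduces retinal, went from 23.3, 35.2 and 25.7 to 2.92 and 3.68 CPM, and its difference from untreated cells passed (-3.43 ± 0.40, edgeR adjusted p = 0.00169). Cyp26b1, which degrades retinoic acid, went from 0.331, 0.854 and 0.694 to 3.47 and 6.13 CPM, Crabp2, which carries it, from 8.97, 4.37 and 10.5 to 41.1 and 61.1 and the receptor Rara from 58.2, 41.5 and 42.9 to 89.2 and 69.7.

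Of 17 Hedgehog components tested, such as ligands, receptors and transducers, 2 rose and 1 fell, against 20.3% and 19.8% of all genes. Boc, a coreceptor, went from 15.6, 17.6 and 15.6 to 65.4 and 74.7 CPM and rose in untreated cells too (2.11 and 2.01 log2 units, difference 0.096 ± 0.48, edgeR adjusted p = 1). Cdon, its relative, was called at an adjusted p of 0.039 that was lost without any 1 of libraries 16, 4, 14 and 18 in edgeR (0.131, 0.0894, 0.0658 and 0.194). The ligand Shh had 31 counts at D6 and 1 at D8, which is 20.2 times less per total count (exact 95% interval 3.37 to 824), and its call was lost without libraries 12, 4, 14 or 18 (0.0936, 0.0836, 0.218 and 0.0849).

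Of 24 second heart field and progenitor genes 6 rose and 4 fell, near the 20.3% and 19.8% of all genes. Foxc1 went from 22.5, 18.7 and 28.8 to 68.3 and 73.6 CPM, Meis2 from 54.4, 72.1 and 50.5 to 283 and 279 and the noncanonical ligand Wnt11 from 6.45, 2.66 and 5.92 to 109.9 and 22.3 (edgeR adjusted p = 6.86e-05, 0.000341 and 0.000955). The rise of Wnt11 was 3.72 log2 units, and 2.15 without library 14. Of 12 early mesoderm genes 0 rose and 5 fell, against 20.3% and 19.8% of all genes. In untreated cells 5 fell, against 17.5%. Nodal went from 10.3, 24.3 and 6.98 to 1.67 and 1.82 CPM, Wnt3 from 5.95, 2.94 and 4.07 to 0.324 and 0.454 and Eomes from 20.9, 15.6 and 20 to 0.37 and 4.63. Their adjusted p without library 14 was 0.0956, 0.128 and 0.239, and without library 18 0.0661, 0.0737 and 0.0187 in edgeR. Eomes also missed without library 12, 16 or 4 (0.0588, 0.0738 and 0.0732). Of 8 pluripotency genes, 1 was called, against 40.1% of all genes. That gene, Tdgf1, a Nodal coreceptor also found in the early heart, was at 12.3, 11.3 and 8.42 CPM and 65 and 15.3 (edgeR adjusted p = 0.00544). Its call was lost without library 14, where the rise went from 1.91 to 0.52 log2 units.

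Of 11 developmental timing genes 4 fell and 0 rose, against 19.8% and 20.3% of all genes. In untreated cells 4 fell and 1 rose, against 17.5% and 17.3%. Lin28a, an RNA-binding protein of early development that blocks let-7, went from 587, 549 and 544 to 40.7 and 100.3 CPM (log2 fold change -2.99 ± 0.47, edgeR adjusted p = 0.000317), with -2.89 in untreated cells and a difference of -0.098 ± 0.58. Lin28b went from 128, 141 and 150.2 to 47.8 and 93.3 CPM (log2 fold change -0.99, -0.58 without library 14 and -1.54 without library 18). Trim71 and Igf2bp1 changed by -1.05 and -0.39 (edgeR adjusted p = 0.0129 and 0.043, and 0.144 and 0.231 without library 14; Igf2bp1 also 0.102, 0.108 and 0.065 without 16, 4 and 18). Of 27 cell cycle genes 0 rose and 15 fell, against 20.3% and 19.8% of all genes, with a median of -0.60. In untreated cells 12 fell, against 17.5% of all genes, with a median of -0.61. The medians of libraries 14 and 18 alone were -0.84 and -0.40. Their summed level was 5057 to 6399.8 CPM at D6, 3305 and 4663 in libraries 14 and 18 and 3929 and 4051 in untreated D8 libraries. Of 16 cyclin D, Myc and CDK inhibitor genes 4 rose and 6 fell, against 20.3% and 19.8% of all genes. Cdkn1b, an inhibitor, went from 57.1, 48.4 and 48.5 to 105 and 82.7 CPM. Mycl, listed as Mycl1, went from 43.1, 42.6 and 52.2 to 1.94 and 10.4 (log2 fold change -2.89, and -4.55 without library 18).

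Several lists of markers of other cell types also differed between libraries 14 and 18, with single genes going either way or alike in both. Their part in the results above was not tested. Smooth muscle and fibroblast genes summed to 5631 to 8279 CPM at D6 and 7796 and 12995 in libraries 14 and 18, against 8296 and 12695 in untreated D8 libraries. Of 18 tested, 5 rose and 1 fell, against 20.3% and 19.8% of all genes. The medians of libraries 14 and 18 alone were 0.66 and 0.89. Eln, which encodes elastin, went from 4.51, 1.33 and 4.21 to 139 and 50.3 CPM (log2 fold change 4.81 ± 0.72, edgeR adjusted p = 0.000232), and Pdgfrb, a mesenchymal receptor, from 165, 93.9 and 139 to 265 and 503. The matrix genes Postn and Col1a2 went from 6.41, 2.56 and 6.52 to 11.1 and 134 and from 146, 57 and 126 to 640.4 and 1234 CPM. Without library 18 the edgeR adjusted p was 0.0812, 0.457 and 0.0634 for Pdgfrb, Postn and Col1a2.

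Epicardial genes summed to 203 to 228 CPM at D6 and 81.4 and 214 in libraries 14 and 18, and endoderm genes to 121 to 154 and 13.7 and 70.9, so both were lower in library 14 than in all D6 libraries. Of 10 epicardial genes 1 was called, against 40.1% of all genes. That gene, Wt1, was at 2.77, 1.47 and 1.57 CPM and 2.54 and 20.2, with library 14 inside the D6 range (edgeR adjusted p = 0.0101). Its call was lost without library 18, where the rise went from 2.54 to 0.39 log2 units. Of 14 endoderm genes 3 fell, against 19.8% of all genes: Foxa2, Foxa1 and Alb. Foxa1 lost its call without library 14 or 18 (0.204 and 0.081), 12 (0.0565) or 4 (0.104), and Alb, the albumin gene, had 64 counts at D6 and 1 at D8 (ratio 41.7, exact 95% interval 7.23 to 1670.0; DESeq2 adjusted p = 0.111). Of 13 blood genes, which summed to 159.7 to 297 CPM at D6 and 105 and 69.5 at D8, 0 passed in edgeR, against 40.1% of all genes. The embryonic globin gene Hbb-bh1 was at 168, 157 and 76.5 CPM and 23.4 and 19.6 (edgeR adjusted p = 0.221).

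Endothelial genes summed to 568 to 1027 CPM at D6 and 997 and 1476 at D8. Of 19 tested, 2 rose and 2 fell, against 20.3% and 19.8% of all genes. Plvap, of fenestrated vessels, went from 50, 23.7 and 45.1 to 213 and 369 CPM and the TGF-beta coreceptor Eng from 54.8, 27.1 and 49.9 to 187 and 243, while Sox18 went from 99.6, 68.6 and 100.5 to 9.67 and 21.2 and the VEGF receptor Flt1 from 48.5, 41.2 and 41.9 to 16.4 and 22.4 (edgeR adjusted p without library 14 = 0.107 and 0.129 for the last 2). Of 9 tested genes of paraxial mesoderm and skeletal muscle 3 rose and 1 fell, against the same shares of all genes. Meox1 went from 1.78, 0.854 and 1.11 to 16.3 and 49.2 CPM, Tcf15 from 0.331, 0.142 and 0.37 to 1.3 and 2.36 and Sox9, which also marks valve and cartilage precursors, from 149, 158 and 175 to 46.4 and 36. Meox2 had 0 counts at D6 and 194 at D8, at least 99.1-fold higher with a floor of 3 counts in the D6 group, almost all in library 18 (0.185 and 8.63 CPM, edgeR adjusted p without it = 0.0927). Neural genes summed to 759 to 999.7 CPM at D6 and 678 and 1168 at D8, and paraxial genes to 233 to 259 and 124 and 183. Of 12 neural genes tested 2 rose and 1 fell, against the same shares. Irx3 went from 6.49, 4.65 and 5.97 to 31.6 and 34.1 CPM and Dcx from 0.0827, 0.0475 and 0.139 to 1.57 and 1.45. Tubb3 went from 8.1, 3.37 and 8.65 to 0.463 and 1.04, a call lost without library 14, 18, 16 or 4. The edgeR adjusted p was 0.0737 without library 16 and 0.0664 without library 4. The log2 fold change of -3.14 became -2.68 without library 14 and -3.835 without library 18.

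**Figure D5:**
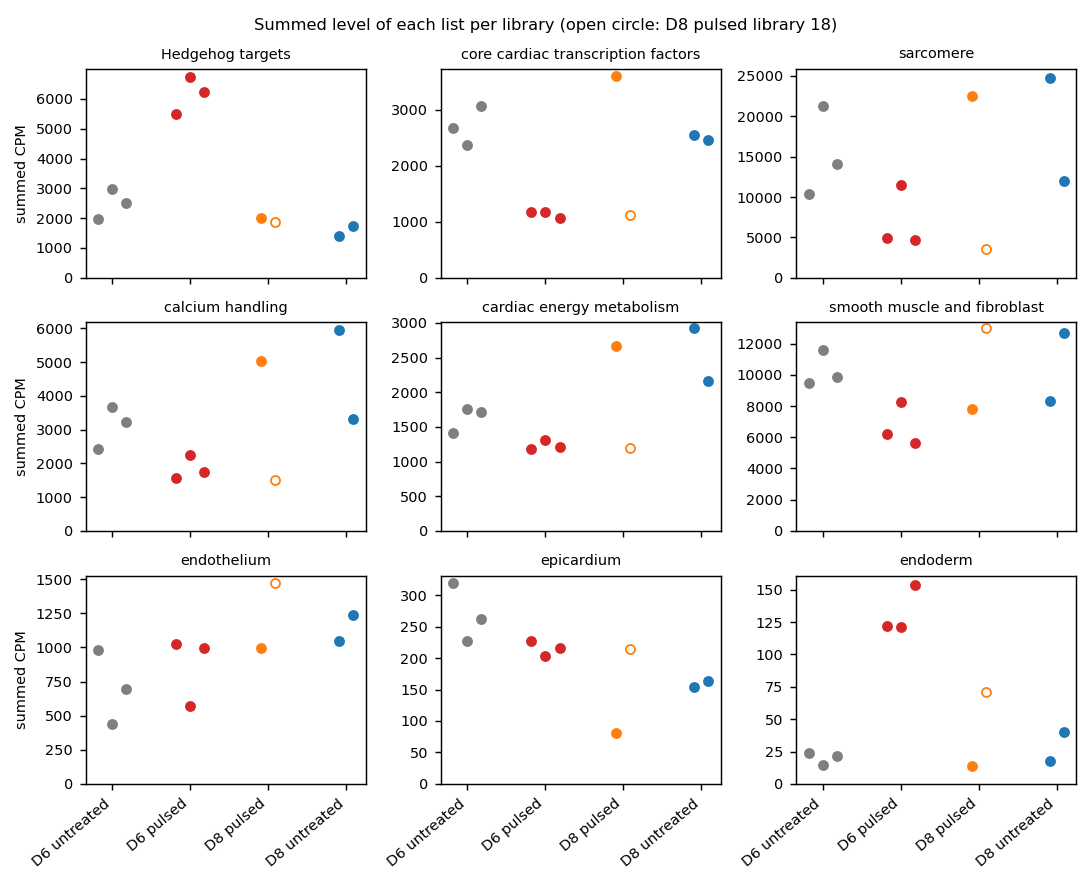
Summed level (CPM) of 9 gene lists in each D6 and D8 library, with D8 pulsed library 18 drawn open. For sarcomere, calcium and core transcription factor genes library 14 lies with or above the untreated D8 libraries and library 18 lies at or below the pulsed D6 libraries in sarcomere and calcium genes.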

How the data were processed

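Libraries were made from polyA RNA (TruSeq RNA kit) and read from 1 end for 50 bases with strand kept, per the labels. The authors deposited 1 table of whole-number counts by gene symbol, which was taken unchanged. Aligner, counter, strand setting and build are not given in the sources used, so overlapping, antisense and near-identical genes are uncertain. Count columns were assigned to groups by day and condition in their names.

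The fits used edgeR 4.0.16 under R 4.3.3. filterByExpr (minimum count 10) kept 14892 of 23337 genes. TMM scaled the libraries, and all 18, in 7 groups, entered 1 robust quasi-likelihood fit and share its estimate of the spread. Contrasts were D8 minus D6 in pulsed cells, the same in untreated cells and the difference of both, with Benjamini-Hochberg adjustment over all genes and calls under 0.05. Levels are CPM on TMM-scaled library sizes, and errors of log2 fold changes are standard errors. Intervals and floors cover counting error only.

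Genes named were Gli1, the 12 largest rises and falls and the 10 largest differences per direction among called genes with a mean log2 CPM of at least 1, without predicted names, and up to 4 called members of each list, the Hedgehog targets in full. For the rises and falls, groups had also not to overlap. The members and the 25 gene lists were chosen with earlier results of these data known. Foxf1, Mycl, Spi1 and Map2 stand in the table as Foxf1a, Mycl1, Sfpi1 and Mtap2. Alternatives were RLE size factors, other filters, DESeq2 1.42.0, limma-voom (limma 3.58.1), fewer libraries, a number-series term and leaving out each library. List counts under these were added after the data had been seen. Some genes that the rule names are counted but not reported here. The model was tested on simulated data.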

Additional observations from a re-analysis of the deposited data

Results flagged for a closer look

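The change from D6 to D8 differed between pulsed and untreated cells for 94 genes in edgeR's test of the difference itself, and 23 of these were named above. The difference (pulsed minus untreated, log2) was below 0 for 15 of them: Gli1 -5.72, Epha8 -9.48, Nkx2-9 -5.22, Hhip -5.28, Lrrc15 -7.30, Casq2 -6.06, Acy3 -6.02, Pik3r6 -5.80, Foxl1 -5.27, Kcnn3 -4.35, Slc8a3 -4.03, Ntm -3.99, Ptch1 -3.05, Hsd11b2 -3.08 and Dhrs3 -3.43. It was above 0 for 8: Tbx2 4.77, Cdh6 2.81, Lrrn2 1.98, Shank1 1.82, Tgfb2 1.78, Spry2 1.43, Tsc22d1 1.05 and Crtc1 0.70. The edgeR adjusted p ranged from 3.73e-07 to 0.0482. All pulsed D6 libraries lay above all untreated D6 libraries in the first set and below them in the second. This ordering is part of the contrast that picked the genes and is a description.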

How the results depend on the processing

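Between D6 and D8, pulsed cells gave 5584 to 6451 calls with other size factors, filters, DESeq2, limma-voom or the number series as a term, and 4363 with the spread taken from their own 5 libraries. Leaving out 1 library gave 3431 to 5434 calls, with 1699 to 2811 higher and 1732 to 2684 lower, and the lowest count came without D8 library 14. Untreated cells gave 2782 to 4358, with 1401 to 2069 higher and 1381 to 2289 lower, lowest without library 13. For the difference of the changes, leaving out 1 library gave 48 to 97 calls, with 2 to 27 higher and 44 to 70 lower; without library 14 it was 80, of which 48 were among the 94, and without library 18 it was 97, of which 58 were. DESeq2 called 233 (54 higher and 179 lower), limma-voom called 17 higher, and testing every gene with at least 1 count left 6 higher. The cause was not tested. The change of Foxd1 ranged from -5.08 to 2.52 and that of Nkx2-3 from -0.0053 to 2.84 with 1 library left out, both lowest without library 18. Over all pairs of a named result and a fit without 1 library, 161 lost their call, 3 gained one and 2, Foxd1 and Nkx2-3, turned direction, and under the other settings 13 lost it.

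The count columns carry library numbers but no replicate numbers, and numbers 11 to 14 and 15 to 18 only share a series. With this series as a replicate block, 6076 genes were called in pulsed cells (5505 shared), 5388 in untreated cells and 100 for the difference (80 shared). It left the pulsed changes of Fsd2, Rab34, Cdkn1c, Cdon, Shh, Irx4, Tnnt1, Igf2bp1 and Foxa1 (edgeR adjusted p = 0.0546 to 0.0815) and the differences of Shank1 (0.0509) and Crtc1 (0.0506) uncalled. Deviations within a series correlated at 0.253 between D6 and D8 in pulsed cells, 0.335 in untreated cells, 0.557 between pulsed and untreated cells at D6 and 0.491 at D8. With 2 libraries at D8, no group there shows which of its libraries stands apart.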

Other observations

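The genes that most separated the 2 pulsed D8 libraries were looked up after their values had been seen. Cacna2d2, a calcium channel subunit, was at 139 and 4.95 CPM in libraries 14 and 18, Rrad, a GTPase that dampens calcium channels, at 135 and 7.13, the myosin gene Myh7 at 2416 and 142 and the neuregulin receptor gene Erbb4 at 25 and 1.09. Untreated D8 libraries 13 and 17 held 240.0 and 85.1 CPM of Cacna2d2 and 3777 and 793 of Myh7, and library 14 lay between them and library 18 below both.

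Other genes were higher in library 18. Upk3b was at 0.509 and 20.3 CPM in libraries 14 and 18, Bnc1 at 1.2 and 27.9, the apelin receptor gene Aplnr at 2.31 and 43.2 and thrombomodulin, Thbd, at 2.64 and 42.2. At D6 the pulsed libraries had held 22, 4.65 and 12.7 CPM of Upk3b, 22.4, 17.2 and 36 of Bnc1 and 26.6, 31.5 and 45.2 of Thbd, so in these 3 genes library 18 lay within the D6 range and library 14 below it. Across genes, the gap between libraries 14 and 18 correlated with that between untreated libraries 13 and 17 (Pearson r = 0.53), and genes are not independent replicates.

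Library 14 lay above and library 18 below all D6 pulsed libraries for 602 of the genes tested, and the reverse held for 514. Among genes called higher, 104 had library 14 alone above all D6 pulsed libraries and 18 had library 18 alone.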
